A study of Mus musculus with 18 samples.

Results

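The genes described here are the replication-dependent histone genes and the linker histone genes of the mouse, 68 genes of the 28242 with a gene symbol in the deposited TPM table. They were chosen by symbol alone, as every gene named H1f, H2ac, H2bc, H3c or H4c followed by digits, or carrying an older name that starts with Hist1 to Hist4. The set holds 8 linker (H1), 19 H2A, 17 H2B, 12 H3 and 12 H4 genes. Of these, 65 are replication-dependent and 3 are replacement linkers, namely H1f0, H1f8 and H1f10.

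RNA was sequenced from mouse oocytes at 3 stages, namely in primordial follicles, in primary follicles and at metaphase II (MII), the stage at which a mature oocyte waits to be fertilised. Each stage was taken from sham mice and from mice labelled NTY, which the labels leave unexplained. With 3 libraries a group, the 6 groups make 18 libraries. All groups were C57Bl/6j x CBA/J mice and were labelled in vivo. The 12 libraries of primordial and primary follicles were read from the labelled protocol as laser microdissected, with RNA pooled from several caps per stage, amplified as whole transcriptomes and enriched for coding RNA by capture probes. The 6 MII libraries came from collected oocytes and were made with Smart-seq II, a method that starts its DNA copies at the poly(A) tail of an RNA. Stage and library method therefore cannot be told apart between MII and the microdissected libraries, and no test was made across them. The labels do not say which libraries come from separate animals, so p-values measure the spread between these libraries only. Replicate 3 of primary NTY carries the library code of another replicate of that group with a digit added, and no other library does. That group may therefore hold fewer than 3 independent libraries.

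Histones are the proteins around which DNA is wound. Pairs of H2A, H2B, H3 and H4 form the core of the nucleosome, and linker histone H1 binds the DNA where it enters and leaves that core. Replication-dependent histone genes lie in clusters, have no introns and are most active while DNA is copied. Their mRNAs typically end after a short stem-loop, which is bound by the protein SLBP, instead of in a poly(A) tail. Replacement histones are made outside of DNA replication from ordinary polyadenylated mRNAs. H1f8, once called H1foo, is the linker histone of the oocyte, and H1f0 is a linker found in many cells that no longer divide.

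The stem-loop is what sets the mRNAs of these genes apart, so it was searched for in the GENCODE M21 transcripts (GRCm38, the mm10 build), on the transcribed strand only. The motif of 16 bases reads GG, any 2 bases, CTT, any base, T, any base, AG, any 2 bases and CC. It was present in 42 of the 68 genes (61.8%) and in 136 of all 21901 protein-coding genes (0.621%). All 42 were replication-dependent genes. Of the 23 replication-dependent genes without it, 11 had a transcript model that holds the coding sequence only. The 16-base motif is in capitals in the following stretches, which show the most common form (H2ac4 and H3c14), a form found in 5 H2B and H3 genes (H3c6), the most common H4 form (H4c8) and a rarer H4 form (H4c2).
H2ac4, chr13:23751572-23751587, plus strand: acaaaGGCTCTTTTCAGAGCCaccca
H3c14, chr3:96247327-96247342, plus strand: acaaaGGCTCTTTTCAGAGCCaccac
H3c6, chr13:23561903-23561918, minus strand: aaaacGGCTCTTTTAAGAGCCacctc
H4c8, chr13:23531458-23531473, plus strand: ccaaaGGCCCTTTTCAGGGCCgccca
H4c2, chr13:23757366-23757381, plus strand: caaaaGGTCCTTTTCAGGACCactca
The loop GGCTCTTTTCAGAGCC was shared by 24 genes of the H1, H2A, H2B and H3 families and by no H4 gene. The loop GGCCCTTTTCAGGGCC was found in 6 genes, all of them H4. These sequences describe the annotated transcripts and not the reads.

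The common signal for a poly(A) tail is AATAAA, which was searched for on the transcribed strand in the last 50 bases of the longest coding transcript of each gene. It was present in 13 of the 68 genes (19.1%), that is in all 3 replacement linkers and in 10 replication-dependent genes, against 59.2% of all protein-coding genes. It is in capitals in these stretches from both replacement linkers found in MII oocytes and from H3c14.
H1f8, chr6:115950214-115950219, plus strand: ataatttatcAATAAAgactttgtat
H1f0, chr15:79030483-79030488, plus strand: aaaactttaaAATAAAactggaaagg
H3c14, chr3:96248487-96248492, plus strand: ttttaatcccAATAAAaatttaacac
The model of H3c14 thus carries both signals, with 1167 bases between the stem-loop and the end of the transcript.

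Most of the genes lie close together. The distal cluster on chromosome 13 (23531050 to 23934851) holds 30 of them, the proximal cluster on the same chromosome (21715763 to 21837530) holds 19 and a middle cluster (22035164 to 22043676) holds 5. A cluster on chromosome 3 (96219865 to 96270132) holds 10. Hist1h2al lies alone on chromosome 13 (51202727 to 51203065). H1f0 lies on chromosome 15, and H1f8 and H1f10 lie on chromosome 6. The median gene shared 51.0% of its 50-base stretches with another gene, 34 of the 68 shared over 50% and 9 shared under 5%. How reads that match several genes were counted is not given in the sources used here, so the division of reads between near-identical members is uncertain, whereas H1f8 and H1f0 shared none. Exons of another gene overlap 7 members on the same strand and 27 on either strand.

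The microdissected libraries held 15149564 to 29205503 counts and the MII libraries 8652089 to 9978830. Oocyte markers were high in MII, where 15 oocyte genes other than Foxo3 summed to 8126 to 11947 CPM (counts scaled to the total of their library). In 11 of the 12 microdissected libraries the same 15 genes summed to 225 to 1423 CPM. Such a sum could rest mostly on 1 gene, as on Kit (218 CPM, with Gdf9 at 1.41 CPM) in primordial NTY replicate 1. In primordial sham replicate 1 it was Zp1 (172 CPM, with Gdf9 at 2.11 CPM). These sums alone therefore do not settle the oocyte label of the 11. In primordial NTY replicate 3 the 15 genes summed to 4.07 CPM, while Foxo3 stood at 3488 CPM there. Foxo3 was left out of these sums after the values had been seen. It stood at 147 to 472 CPM in MII and 550 to 3488 CPM in the microdissected libraries. With Foxo3 this library had the highest microdissected sum, 3493 CPM. By the other 15 genes the label of this library as oocytes is in doubt, and some of the results that rest on it are also given without it. Genes of granulosa cells, the follicle's support cells (14 genes), summed to 778 to 4968 CPM and 6 stroma genes to 1376 to 17910 CPM in the microdissected libraries. In MII these sums were 83.5 to 159 CPM and at most 2.91 CPM. Of the 14 granulosa genes, 5 were at 0 in all 6 MII libraries (Foxl2, Amhr2, Wt1, Fst and Nr5a1). Cyp19a1 went the other way, at 28.6 to 68.7 CPM in MII against at most 0.299 CPM in the microdissected libraries. Esr2 did too, at 35.6 to 74.8 CPM against at most 9.35 CPM.

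In MII oocytes the oocyte linker led the 68 genes. H1f8 took 96.1% to 99.1% of the counts on the 68 genes in the 6 MII libraries. Its counts were 115896, 98639 and 147598 in the sham libraries and 151124, 144125 and 77656 in the NTY libraries. The sham and NTY values overlapped. By TPM, which corrects for gene length, H1f8 stood at 22840, 23320 and 37688 in sham and 36817, 34546 and 19054 in NTY, and its rank among the 28252 genes lay between 1 and 5 in every MII library.

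The same gene was low in the microdissected libraries. The primordial sham libraries held 0, 66 and 0 counts of H1f8, and the primordial NTY libraries 4, 39 and 0. The primary sham libraries held 87, 16 and 125 counts and the primary NTY libraries 1, 77 and 59. The lowest MII library was 1681-fold above the highest microdissected library in CPM and 1472-fold in TPM.

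The 65 replication-dependent genes showed the opposite order. They summed to 11758, 11617 and 12089 CPM in primordial sham, 6124, 18569 and 19600 CPM in primordial NTY, 10525, 24350 and 23370 CPM in primary sham, and 19375, 17551 and 18973 CPM in primary NTY. In MII the sums were 46.2, 36.7 and 72.5 CPM in sham and 66.4, 73.8 and 50.05 CPM in NTY. Every microdissected library was above every MII library, by 83.0-fold at the least and 310-fold between the medians. In bulk samples such as these, fewer cells of a type and less RNA per cell cannot be told apart. Nor can the stage and the library method, in these sums or in H1f8. In MII that method starts its copies at the poly(A) tail, and its part in these values was not tested.

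**Figure D1:**
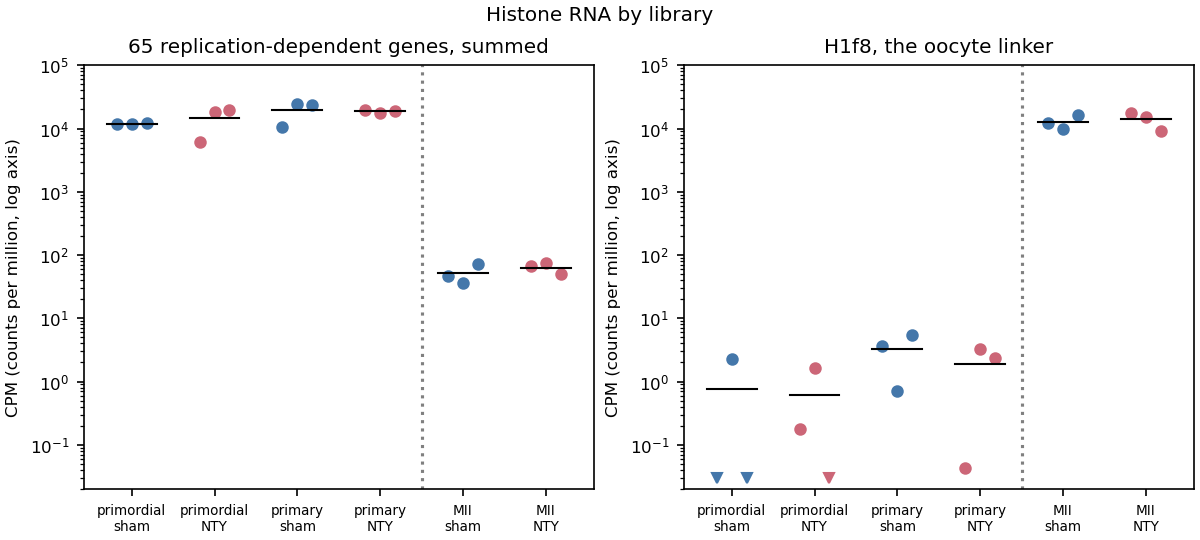
Each point is 1 library, in CPM on a log axis, with sham in blue and NTY in red, bars at the group means and downward triangles at the lower edge for libraries at 0; the dotted line divides the microdissected from the MII libraries. The left panel gives the sum of the 65 replication-dependent genes (6124 to 24350 CPM against 36.7 to 73.8 CPM) and the right panel H1f8 (at most 5.34 CPM against 8975 to 17304 CPM), so the panels run in opposite directions.

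Among the linkers, only H1f8 had a higher median CPM in MII than in the microdissected libraries. H1f0 had 8, 3853 and 14 counts in primordial sham, 20094, 12047 and 6999 in primordial NTY, 30078, 21508 and 4025 in primary sham, and 21084, 3 and 22932 in primary NTY. In MII it had 4238, 689 and 770 counts in sham and 3349, 987 and 259 in NTY. H1f0 was thus present in all 6 MII libraries, at a median of 127 TPM, and held 14 or fewer counts in 3 of the 12 microdissected ones, whose median was 629 TPM. The 5 replication-dependent linkers (H1f1 to H1f5) summed to 4.03 to 181 CPM in the microdissected libraries and 2.03 to 8.70 CPM in MII. H1f10, a replacement linker, reached 700 counts in the microdissected libraries and 1 count in MII.

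Most replication-dependent genes had low counts in MII oocytes, with 11 to 24 of the 65 counted at least once in a library. Of the 65, 32 were at 0 in all 6 MII libraries, 52 had under 10 counts in every one, 13 had 10 or more in at least 1, and 3 had 10 or more in all 6. These 3 genes, H2ac1, H3c14 and H2bc4, held 66.4% to 81.3% of the 366 to 689 replication-dependent counts in an MII library.

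H2ac1 and its neighbour H2bc1 encode the testis forms of H2A and H2B. H2ac1 had 217, 142 and 217 counts in MII sham and 287, 108 and 161 in MII NTY. In the microdissected libraries it had 1141 counts in primordial NTY replicate 2, 561 in primary sham replicate 3, 1 in primary sham replicate 1 and 0 in the other 9. H2ac1 was therefore in every MII library and in few of the others, and only 2.35% of its 50-base stretches occur in another gene.

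H2bc1 lies 305 bases from H2ac1 on the other strand. It had 5, 6 and 8 counts in MII sham and 2, 10 and 17 in MII NTY, so it was low in all 6. It reached 6218 counts in primordial sham replicate 2 and 2390 in primary sham replicate 3, and was at 0 in 4 of the other microdissected libraries.

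H3c14, an H3 gene of the chromosome 3 cluster, had 90, 75 and 84 counts in MII sham and 68, 118 and 93 in MII NTY. It had 1 count in 1 microdissected library and 0 in the other 11, so the 2 kinds of library did not overlap. It is fully overlapped on the same strand by an exon of another gene, and all of its 50-base stretches occur elsewhere, so these counts may belong to either gene. H2bc4, an H2B gene, had 13, 26 and 171 counts in MII sham and 51, 334 and 50 in MII NTY, against 4 to 61759 in the microdissected libraries.

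The end of the annotated transcript can be set beside these counts, in classes made by the stem-loop alone and not by AATAAA. Of 26 genes whose model ends under 300 bases after the stem-loop, 1 (Hist1h2bp) had 10 or more counts in an MII library and 16 were at 0 in all 6. Of 16 genes whose model runs 300 or more bases past it, 7 had 10 or more (H3c14, H4c14, H3c7, H2bc6, H1f4, H2ac6 and H1f2) and 3 were at 0 in all 6. Of the 23 replication-dependent genes without the motif in their model, 5 had 10 or more (H3c13, H2bc4, H1f1, H2bc1 and H2ac1) and 13 were at 0. AATAAA was present in 10 replication-dependent genes, which among those named here were Hist1h2bp, H3c14, H4c14 and H1f2. It was thus absent from the models of H2ac1 and H2bc4. In the microdissected libraries the median genes of these classes stood at 42.7, 48.7 and 2.13 CPM. The MII counts are not corrected for length, and the second class is longer (727 to 7425 exon bases, against 391 to 706 in the first). Exons of another gene on the same strand overlap H3c14 (100%), H1f4 (25.7%), H2bc6 (11.2%) and H2ac6 (4.35%). In the other 2 classes they overlap H2ac18 (90.3%) and H2bc18 (59.3%). No test was made of these counts, and the part of length, overlap or the library method in them was not tested.

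**Figure D2:**
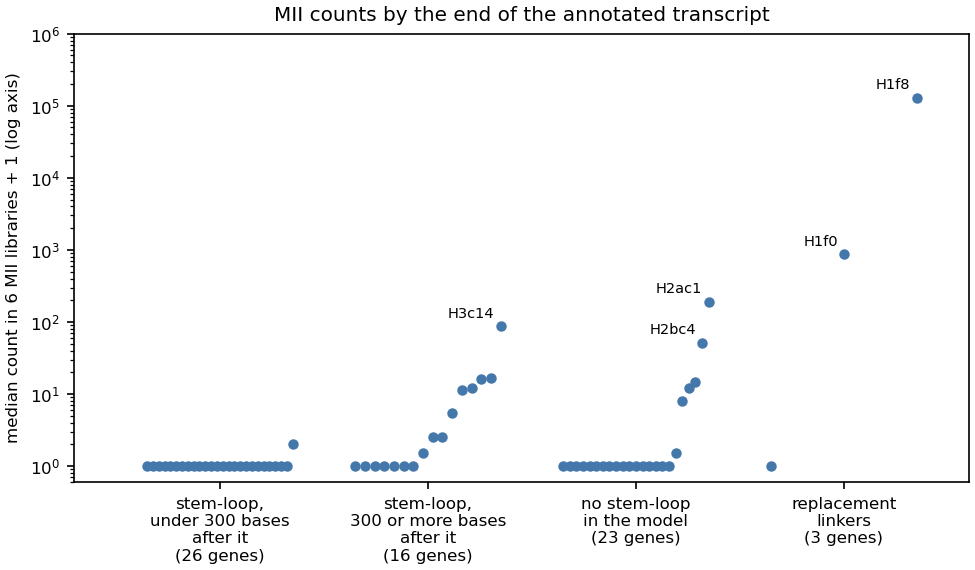
Each point is 1 of the 68 genes, at its median count over the 6 MII libraries plus 1 on a log axis, in 4 classes by the end of its annotated transcript; H1f8, H1f0, H2ac1, H3c14 and H2bc4 are named. The class with a stem-loop under 300 bases from the end sits at the bottom of the axis, H3c14 leads the class with a longer end, and the replacement linker H1f8 stands above all others.

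In the microdissected libraries linkers held 0.0387% to 13.9% of the histone counts and the core families the rest. By TPM, so that genes of unlike length can be summed, H2B stood at 5152 to 61993 (median 35200), H4 at 6860 to 44603 (median 26852), H2A at 213 to 57706 (median 19381), H3 at 3126 to 18660 (median 10641) and H1 at 9.56 to 2366 (median 763). The ranges of the 4 core families overlapped. In MII the order was other, with H1 at a median of 29055 TPM, H2A at 129, H3 at 23.0, H2B at 20.8 and H4 at 9.45.

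In TPM, but not in CPM, the H2A family set the primordial sham libraries apart from the rest of the microdissected set. Its sums there were 7781, 8609 and 213 TPM, and the other 9 libraries ranged from 12025 to 57706 TPM. Without H2ac4 the primordial sham sums ranged from 212 to 8609 TPM and those of the other 3 groups from 11385 to 33155 TPM, so the groups still did not overlap. Without H2ac15 as well, the lowest primordial NTY library stood at 4660 TPM and the groups overlapped. That library was primordial NTY replicate 3, in which H2ac4 and H2ac15 held 115805 and 68198 counts, and without it the other 2 primordial NTY libraries (9406 and 11384 TPM) and the lowest primary library (9295 TPM) were above all 3 primordial sham libraries. In CPM the H2A sums overlapped, at 1728 CPM in primordial sham replicate 1 and 1579 CPM in primordial NTY replicate 1. Without H2ac4 and H2ac15 these 2 libraries stood at 1726 and 1489 CPM.

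The ratio of H2A to H2B in TPM varied with these sums. It was 0.211, 0.270 and 0.0101 in primordial sham and 0.484, 0.472 and 0.461 in primary sham. It was 0.817, 0.409 and 11.2 in primordial NTY and 0.510, 4.16 and 0.735 in primary NTY. H2A RNA was thus below H2B RNA in 10 of these 12 libraries, and 1 library of each NTY group went the other way.

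**Figure D3:**
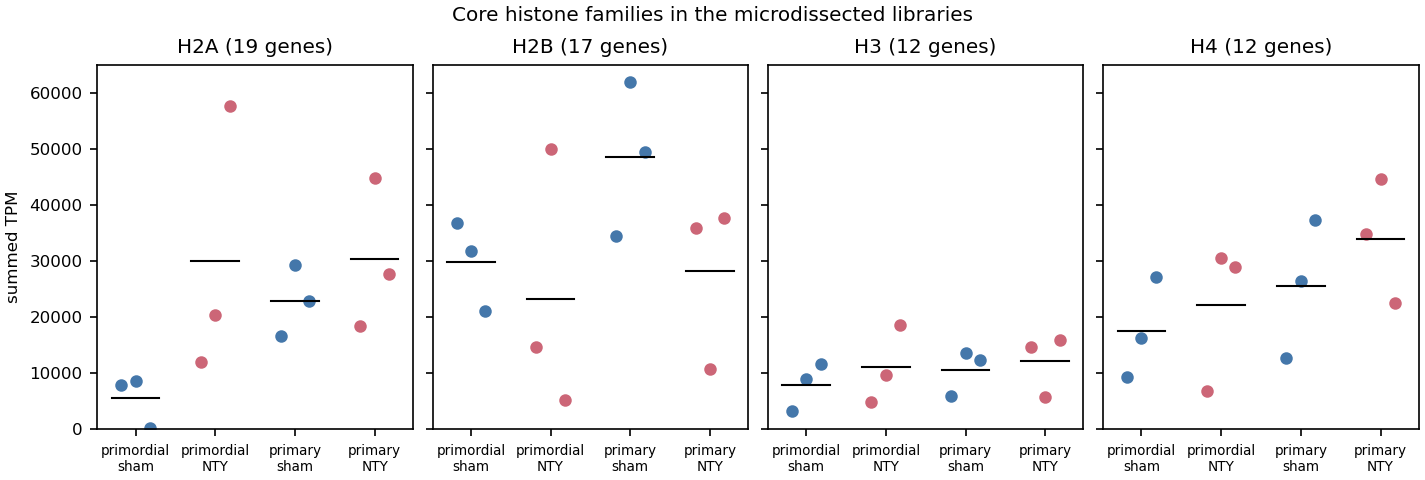
Each point is 1 microdissected library, at the summed TPM of the genes of a core histone family, with sham in blue, NTY in red and bars at the group means. In H2A the 3 primordial sham libraries lie below the other 9, whereas in H2B, H3 and H4 the groups overlap.

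By location, the distal cluster on chromosome 13 gave the largest share of histone counts, with 48.0% to 78.3% in the microdissected libraries. The proximal cluster gave 2.01% to 32.4%, the middle cluster 0.324% to 30.9% and the chromosome 3 cluster 2.97% to 18.5%. The proximal cluster summed to 236, 761 and 1744 CPM at its lowest, median and highest in primordial sham and to 2270, 4677 and 5221 CPM in primary sham, and these did not overlap. It had 794 to 6189 CPM in primordial NTY and 3312 to 6186 CPM in primary NTY. In MII the proximal cluster reached 3.64 CPM at most, the middle cluster 1.12 CPM, the chromosome 3 cluster 16.6 CPM and the distal cluster 55.5 CPM.

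Single members varied widely between replicates. Over replication-dependent genes with a mean of at least 10 CPM, the median coefficient of variation between the 3 libraries of a group was 151% in primordial sham, 126% in primordial NTY, 81.2% in primary sham and 102% in primary NTY. The sum over all 65 had 2.05%, 50.8%, 39.7% and 5.14%, and a sum varies less than its members by averaging alone, so the members and the sum are not compared. The sum of primordial sham was steady although its H2A sum varied by 91.3% and its H4 sum by 58.6%.

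The leading gene changed from library to library. In primordial sham it was H2bc6 (20.6% of histone counts), H4c4 (18.3%) and H2bc4 (24.2%). H2bc6 had 36689 counts in replicate 1, 87 in replicate 2 and 9 in replicate 3. In primordial NTY the leaders were H1f0, H2bc6 and H2ac4, in primary sham H1f0, H4c3 and H4c8, and in primary NTY H4c2, H2ac10 and H2ac15.

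Of the 68 genes, 55 had 1000 or more counts in at least 1 microdissected library, and 43 of these had 3 or fewer in another. Without primordial NTY replicate 3 these numbers were 55 and 41. The 13 genes that never reached 1000 were H2ac21, H3c15, H2ac19, H2ac18, H3c14, H1f10, H1f8, H2ac14, H1f5, Hist1h2bq, Hist1h2ao, Hist1h2ap and H1f1. Of these, H3c15, H2ac18, H3c14 and H2ac14 never reached 10.

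3 genes had 1000 or more counts in all 12 libraries, namely the H4 genes H4c8 and H4c4 and the H3 gene H3c6. H4c8 had 1164, 19371 and 8578 counts in primordial sham, 2880, 20225 and 50682 in primordial NTY, 15988, 22912 and 34174 in primary sham, and 4182, 41458 and 12262 in primary NTY. H3c6 was the steadiest of them, between 3920 and 14203 counts. Without primordial NTY replicate 3, H3c7 joined them.

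This all-or-none pattern was set beside the same count over all genes, without a test. In primordial sham, 13 of 32 histone genes that reached 1000 counts in a library had 3 or fewer in another library of the group (40.6%), against 41.2% of 4818 genes overall. The shares were 42.9% against 40.8% in primordial NTY and 36.2% against 40.5% in primary NTY. In primary sham it was 6 of 50 histone genes, against 14.3% of all genes. In MII it was 0 of 2 histone genes in each group, against 0% and 0.0434% of all genes. Across the 68 genes, the Spearman correlation of counts between libraries of a group was 0.406 to 0.522 in primordial sham and 0.626 to 0.719 in primary sham, which describes genes of unlike level in libraries that share a method.

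Neighbouring genes that are read in opposite directions from a shared start region gave the same picture. Except for H2bc9 and H3c7, each such pair joins an H2A and an H2B gene. There were 14 such pairs with 175 to 659 bases between their starts. Over 168 combinations of a pair with a microdissected library, both genes had 1000 or more counts in 34, both had 3 or fewer in 28, and one had 1000 or more while the other had 3 or fewer in 34. The pair H2bc9 and H3c7 had 1000 or more on both sides in 10 of 12 libraries. H2ac14 and H2bc14 divided in 8 of 12, always with H2bc14 high, and 93.1% of the 50-base stretches of H2ac14 occur in another gene.

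**Figure D4:**
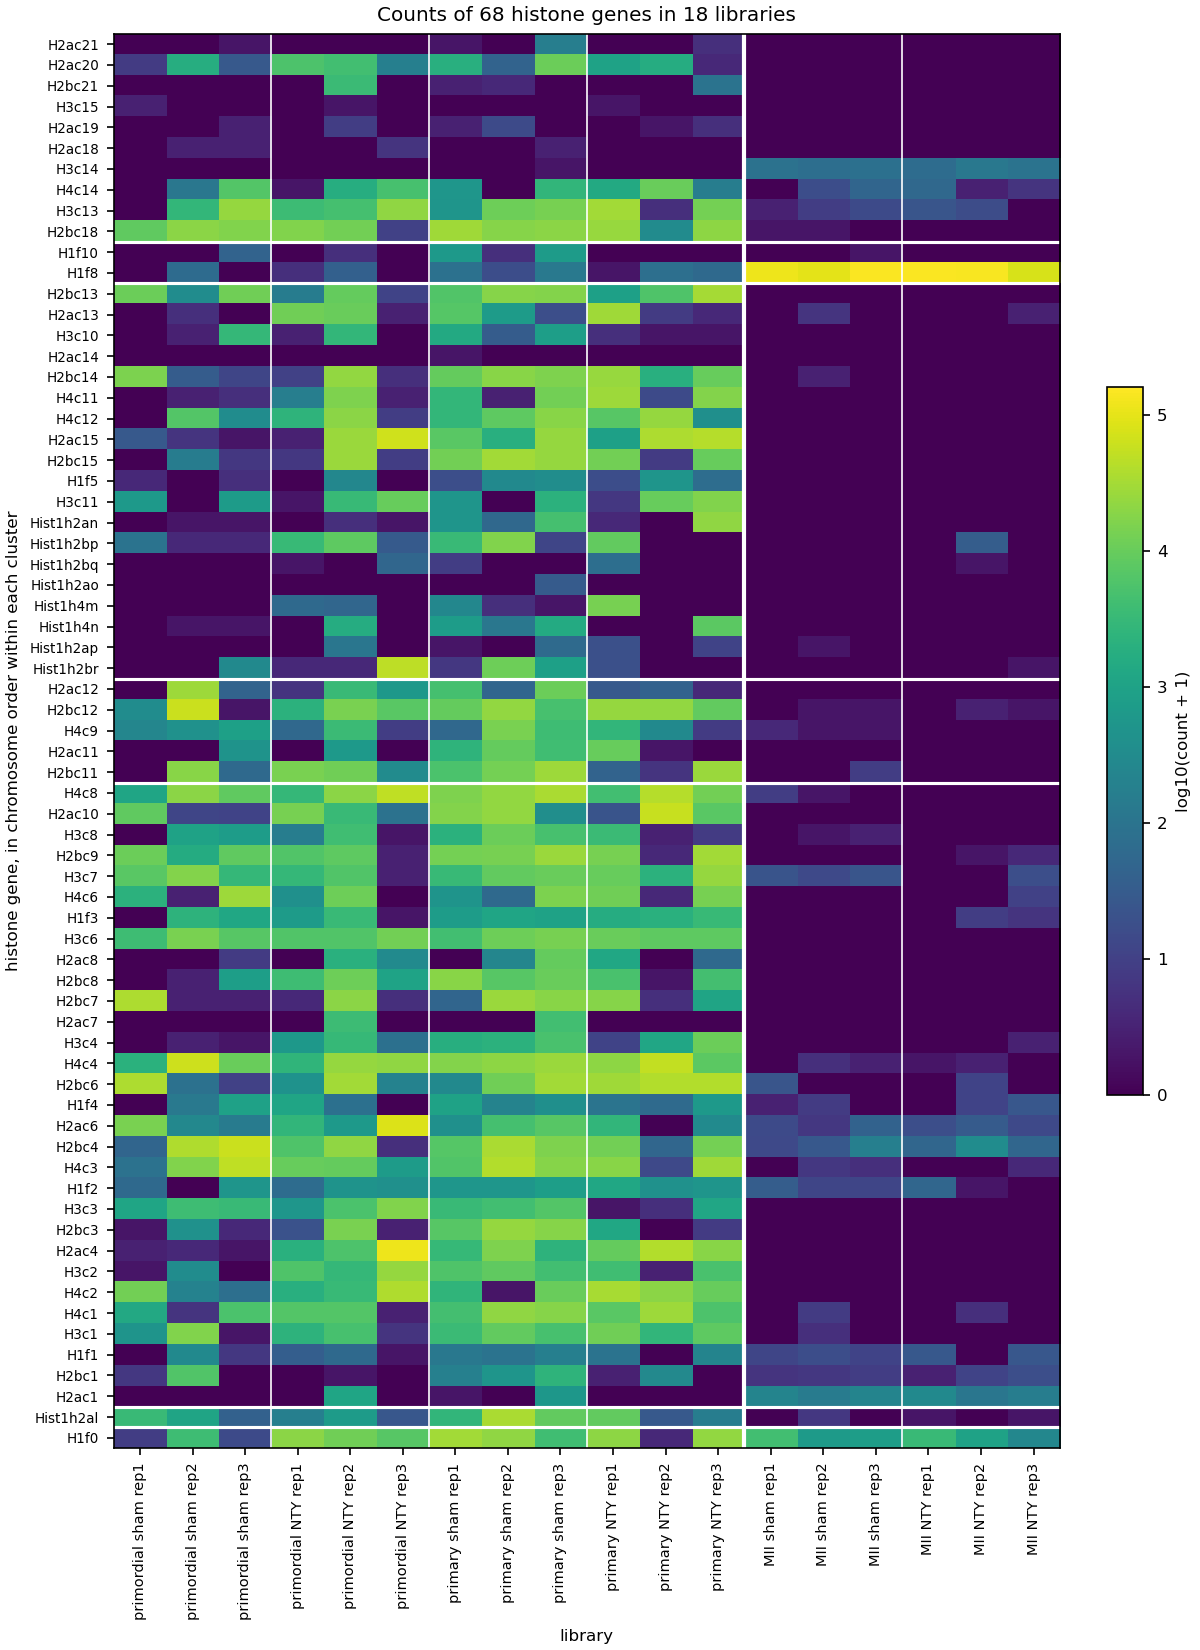
Counts of the 68 genes (rows, in chromosome order within each cluster, white lines between the clusters of chromosomes 3, 6, 13 proximal, 13 middle, 13 distal, Hist1h2al and 15) in the 18 libraries (columns), coloured by log10(count + 1). The microdissected libraries on the left mix high and near-empty cells within a group, and the MII libraries on the right are near empty except for H1f8, H1f0 and a few others such as H3c14, H2bc4 and H2ac1.

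In the tests, groups were compared by the quasi-likelihood test of edgeR on all genes at once, with a Benjamini-Hochberg adjusted p under 0.05 as the threshold. Of the 68 genes, 57 passed the filter on low counts in the microdissected fit and 11 in the MII fit. A gene that passed only through the group where it is high had to differ, so the counts of calls given here describe the genes tested and not all members. Fold changes called highest or lowest are so among members with a mean of at least 10 CPM over the libraries fitted. The microdissected comparisons share libraries, and in particular both that involve primordial sham rest on the same 3 libraries.

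For NTY against sham in oocytes of primordial follicles, 1 of the 57 genes passed, against 0.0095% of the 10522 genes tested, and it was H2ac4. H2ac4, an H2A gene of the distal cluster, had 2, 3 and 1 counts in sham and 2031, 5597 and 115805 in NTY, so the groups did not overlap. Its log2 fold change was 14.57 (SE 2.23, adjusted p = 0.00047, edgeR). Without primordial NTY replicate 3 its adjusted p was 0.141 and no histone gene passed.

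At an unadjusted p under 0.05, 11 genes, H2ac4 included, were higher and 1 lower in NTY. That is 19.3% and 1.75% of the 57, against 7.64% and 3.24% of all genes tested (10.9% in either direction). The 11 were 4 H2A, 2 H2B, 2 H3 and 3 H4 genes. By location, 8 were among the 16 proximal genes tested and 3 among the 28 distal ones. These 8 shared 24.6% (H4c11) to 93.1% (Hist1h2ap) of their 50-base stretches with another gene, so they may not be separate signals. Without primordial NTY replicate 3, 14 of 60 were higher and 1 lower, against 7.92% and 1.83% of all genes. Without NTY replicate 2, 9 of 58 were higher and 6 lower, against 5.85% and 5.2%. Without NTY replicate 1 or sham replicate 1, 18 of 61 were higher and 1 lower, against 6.72% and 2.86% of all genes in the former fit and 5.5% and 3.67% in the latter. DESeq2 passed 8 of the 57 genes, against 7.22% of all genes, and gave H2ac4 no adjusted p.

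H2ac13, an H2A gene of the proximal cluster, had 0, 4 and 0 counts in sham and 12024, 10282 and 2 in NTY, so 1 NTY library lay within the sham range (log2 fold change 12.35, SE 3.64, adjusted p = 0.405, edgeR). H2bc1 had the lowest log2 fold change of the named genes, -12.02 (SE 4.57, adjusted p = 0.405), which rests on the 6218 counts of primordial sham replicate 2. Hist1h2al stood at -2.84 (SE 2.17, adjusted p = 0.693). Fold changes of genes with 4 or fewer counts in a group depend on the small count the program adds.

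In CPM the groups did not overlap, with NTY higher, for 4 of the 57 genes (7.02%, against 5.19% of all genes), namely H1f0, H2ac4, H3c2 and H3c4, and with NTY lower for 0 (against 2.78%). H3c2 had 1, 333 and 0 counts in sham and 5814, 2890 and 23601 in NTY. H3c4 had 0, 2 and 1 counts in sham and 591, 3061 and 84 in NTY. For H1f0 the log2 fold change was 3.62 (SE 1.89, adjusted p = 0.485, edgeR), and for H1f8 it was -0.62 (SE 2.58, adjusted p = 0.977) at 0 to 66 counts. The sum of granulosa markers was 778 to 3287 CPM in primordial sham and 1960 to 4968 CPM in primordial NTY. Of the 14 markers 3 did not overlap, all higher in NTY, namely Amh, Inha (0 to 44.9 CPM against 531 to 824 CPM) and Gja1 (62.9 to 174 CPM against 659 to 1023 CPM). Of all genes tested, 5.19% did not overlap with NTY higher and 2.78% with NTY lower. None of the 12 markers tested passed in edgeR and 3 had an unadjusted p under 0.05, while DESeq2 passed Inha. The part of the markers in these values was not tested.

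For NTY against sham in oocytes of primary follicles, 0 of the 57 genes passed in edgeR, where 0% of all genes did. At an unadjusted p under 0.05 no gene was higher, against 0.722% of all genes, and 3 were lower (5.26%, against 7.43%, and 8.15% of all genes in either direction). These were H1f10, H2ac12 and Hist1h2br, and without primary NTY replicate 1 the lower genes were 11 of 60 (against 9.06% of all genes). DESeq2 passed 1 (against 4.55% of all genes), the linker H1f10, with 606, 4 and 700 counts in sham and 0 in all 3 NTY libraries. Groups did not overlap with NTY lower for 6 genes (10.5%, against 13.8% of all genes) and with NTY higher for 1 (against 1.24%).

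Among members with a mean of at least 10 CPM, which leaves out H1f10, Hist1h2br had the lowest log2 fold change, -9.27 (SE 3.26, adjusted p = 0.500, edgeR), from 6, 11142 and 884 counts in sham and 18, 0 and 0 in NTY. H3c10, an H3 gene, stood at -7.92 (SE 3.98, adjusted p = 0.624). At the other end, Hist1h4m stood at 6.23 (SE 3.61, adjusted p = 0.754) on 13851 counts in 1 NTY library and 0 in the other 2, and H3c11 at 3.87 (SE 2.64, adjusted p = 0.862). H1f0 and H1f8 stood at -0.08 (SE 1.71) and -0.08 (SE 2.57), and both turned to the other sign with RLE normalization (0.092 and 0.47), under which the median of all genes rose from -0.10 to 0.19.

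In MII oocytes, 0 of the 11 genes tested passed in edgeR for NTY against sham, where 0% of all genes did. None had an unadjusted p under 0.05, where 2.29% of all genes did (0.426% higher and 1.87% lower). DESeq2 passed 0 of them, against 0.238% of all genes. For 0 genes were the groups free of overlap, against 2.3% of all genes with NTY higher and 6% with NTY lower. H1f8 was measured most closely, with a log2 fold change of 0.11 (SE 0.30, adjusted p = 1.00, edgeR). H1f0 stood at -0.30 (SE 0.95), H2ac1 at 0.06 (SE 0.55) and H2bc4 at 1.01 (SE 1.10), each with the same adjusted p. Leaving out 1 library moved H1f8 between -0.089 and 0.30.

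Oocytes of primary and primordial follicles were compared within each treatment. In sham, 1 of the 57 genes passed, against 0.0095% of all genes, and it was again H2ac4, with 3115, 15407 and 2279 counts in primary follicles against 2, 3 and 1 (log2 fold change 11.45, SE 2.03, adjusted p = 0.00985, edgeR). It was lost without primordial sham replicate 1 (adjusted p = 0.118) and without primordial sham replicate 3 (adjusted p = 0.0788). Over its 12 alternatives the adjusted p ran from 0.000574 to 0.549.

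At an unadjusted p under 0.05, 14 genes were higher in primary follicles and 0 lower, which is 24.6% of the 57 against 8.67% of all genes for higher (0.608% for lower and 9.28% for either). Of the 14, 6 were H2A, 3 H2B, 2 H3 and 3 H4 genes, and 0 of 8 linkers was among them. Leaving out each of the 6 libraries in turn gave 14 to 16 such genes and 0 lower, against 6.24% to 10.2% of all genes higher. DESeq2 passed 6 of the 57, against 4.78% of all genes.

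In CPM the groups did not overlap, with primary higher, for 16 of the 57 genes (28.1%, against 14.5% of all genes), and with primary lower for 0 (against 1.1%). Among them were H1f0, H1f5, the H2A gene H2ac13 and the H3 gene H3c4. H3c4 had 1813, 2217 and 5188 counts in primary sham against 0, 2 and 1 (log2 fold change 11.10, SE 3.73, adjusted p = 0.473, edgeR). H1f0 stood at 3.81 (SE 1.91, adjusted p = 0.543) and H1f8 at 1.57 (SE 2.63). The lowest were H4c14 at -1.67 (SE 2.61) and H4c6 at -1.63 (SE 2.20).

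The median log2 fold change of the 57 genes was 1.18 and that of all genes 0.29, and under RLE normalization these were 0.91 and 0.00. With TMM 40 of the 57 were above 0, and with RLE 33 were. A list of 16 genes of DNA replication and proliferation summed to 278 to 523 CPM in primordial sham and 939 to 1181 CPM in primary sham. Granulosa markers summed to 778 to 3287 CPM and 1787 to 3450 CPM. Of the 14 markers 4 did not overlap, all higher in primary follicles, namely Amhr2, Inha (0 to 44.9 CPM against 90.4 to 783 CPM), Gja1 (62.9 to 174 CPM against 200 to 1142 CPM) and Nr5a1 (0.066 to 5.93 CPM against 22.1 to 83.3 CPM). Of all genes tested, 14.5% did not overlap with primary higher and 1.1% with primary lower. The part of either list in these values was not tested.

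In NTY, 0 of the 57 genes passed for primary against primordial follicles in edgeR, where 0% of all genes did. At an unadjusted p under 0.05, 2 were higher and 3 lower (3.51% and 5.26%, against 3.49% and 6.48% of all genes, 9.97% in either direction), while without primordial NTY replicate 2 these were 10 and 2 of 58 (against 5.6% and 5.12% of all genes). Without primordial NTY replicate 3 the higher and lower genes were 1 and 3 of 60 (against 2.06% and 6.69% of all genes). DESeq2 passed 2, H3c10 and H2bc1, against 6.62% of all genes. For 0 genes were the groups free of overlap, against 2.51% of all genes with primary higher and 4.61% with primary lower. Hist1h2an stood highest at 11.99 (SE 4.05, adjusted p = 0.439, edgeR), on 21797 counts in primary NTY replicate 3 and 4 or fewer in each of the other 5 libraries. Hist1h2br stood lowest at -11.81 (SE 3.58, adjusted p = 0.439), on 49113 counts in primordial NTY replicate 3, and without that library it stood at 1.15.

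The difference of the NTY effect between primary and primordial follicles was tested as an interaction. It passed for 1 of the 57 genes, against 0.0095% of all genes, and this was H2ac4 (log2 difference -12.53, SE 2.33, adjusted p = 0.0238, edgeR). Its adjusted p was 0.180 without primordial NTY replicate 3 and 0.0659 without primary NTY replicate 3. At an unadjusted p under 0.05, 0 genes had a higher and 11 a lower effect in primary follicles (19.3%, against 2.26% of all genes for higher, 9.58% for lower and 11.8% for either), while without primordial NTY replicate 2 these were 6 and 5 of 58 (against 3.77% and 7.43% of all genes). Without primary NTY replicate 1 they were 1 and 17 of 60 (against 2.09% and 13%). Without primordial NTY replicate 3 they were 0 and 11 of 60 (against 2.03% and 10.3%). DESeq2 passed 2, H2ac15 and H3c4, against 7.05% of all genes. Hist1h2br had the lowest difference at -16.98 (SE 4.47, adjusted p = 0.153, edgeR), and H2bc1 the highest at 9.35 (SE 4.75, adjusted p = 0.438). Leaving out 1 library moved Hist1h2br from -26.78 to -3.99 and H2bc1 from 0.91 to 11.09. The median of all genes was itself at -0.56 and moved to -0.28 under RLE.

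**Figure D5:**
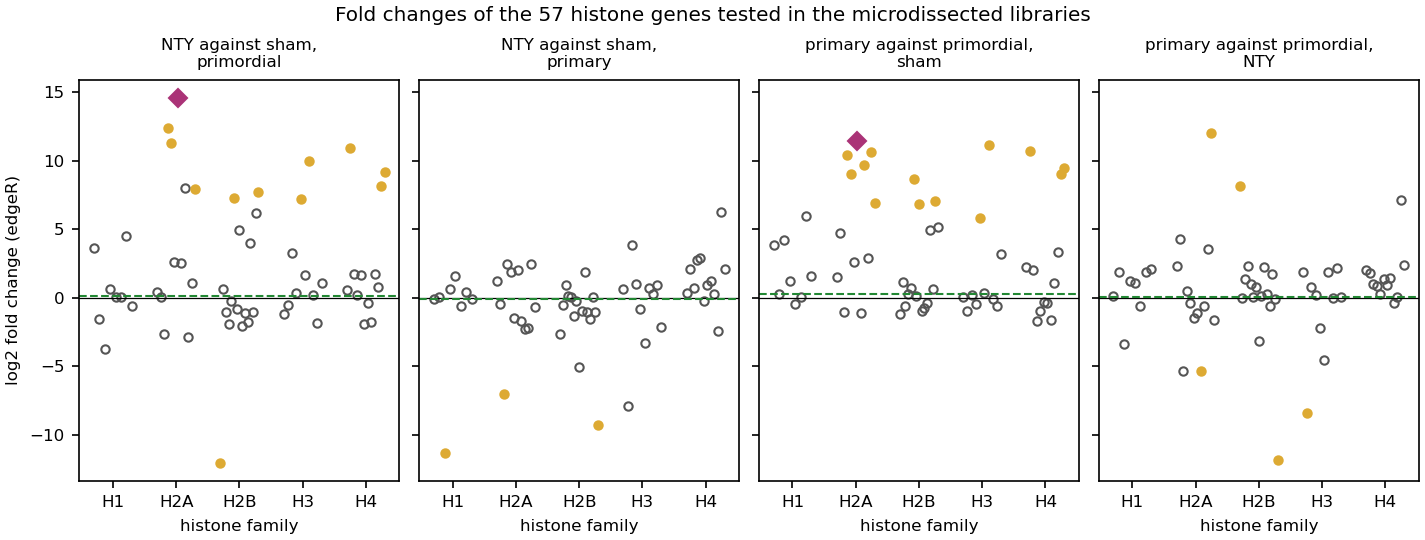
Each point is 1 of the 57 histone genes tested in the microdissected libraries, by family, at its edgeR log2 fold change in 4 comparisons; purple diamonds have an adjusted p under 0.05, yellow points an unadjusted p under 0.05 alone, and the dashed green line is the median of all genes tested. H2ac4 is the diamond for NTY against sham in primordial follicles and for primary against primordial in sham, and in the latter panel the points past either threshold lie above 0, with 14 genes higher and 0 lower.

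The genes that act on histone mRNAs and histones were measured alongside. SLBP, the protein that binds the stem-loops printed above, had Slbp at 3852 to 6320 CPM in the 6 MII libraries and 0.0422 to 429 CPM in the microdissected ones. Its counts were 2210, 9149 and 1 in primordial sham, 2991, 1748 and 3 in primordial NTY, 1428, 534 and 2668 in primary sham, and 1, 9977 and 4352 in primary NTY. Slbp was therefore near absent from 3 of those 12 libraries and in all MII libraries at high counts.

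The replacement core histone H3f3b, which encodes H3.3, stood at 2996 to 4262 CPM in MII and 284 to 1651 CPM in the microdissected libraries. Casp8ap2, a regulator of histone gene transcription, stood at 243 to 472 CPM in MII against 0 to 85.2 CPM, and the histone chaperone Asf1b at 456 to 679 CPM against 0 to 44.8 CPM. Cenpa, the H3 form of centromeres, stood at 104 to 192 CPM against 0 to 1.03 CPM. Other genes went the opposite way, with medians of 0 CPM in MII against 335 CPM for Tut4, which adds uridines to RNA ends, 10.2 against 199 CPM for Sympk, a factor of 3′ end processing, 81.1 against 702 CPM for H3f3a, another gene for H3.3, 4.03 against 173 CPM for the variant Macroh2a1 and 2.71 against 58.3 CPM for the chaperone Hira. Of the 59 genes in the 5 lists described next, 36 had a higher and 23 a lower median in MII, and every MII library was above every microdissected one for 15 and below for 1. The same was not counted over all genes, so whether these numbers are particular to the lists is not known. In all these differences between MII and microdissected libraries the stage cannot be told apart from the library method.

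Over 5 lists of such genes (processing of the mRNA 3′ end, transcription, mRNA decay, chaperones and replacement core histones), edgeR passed 0 of 58 genes tested in every microdissected comparison and 0 of 53 in MII. At an unadjusted p under 0.05 there were 3, 2, 2, 4 and 2 genes in the 5 microdissected comparisons in the order given above, where 10.9%, 8.15%, 9.28%, 9.97% and 11.8% of all genes passed, and 1 in MII (2.29% of all genes). DESeq2 passed 5, 1, 1, 4 and 3 in the same order, where 7.22%, 4.55%, 4.78%, 6.62% and 7.05% of all genes passed, and 0 in MII, and limma on log2(TPM + 1) passed 0 in all 6. Of the 16 replication genes edgeR passed 0 in every comparison, with 1 at an unadjusted p under 0.05 for primary against primordial in sham and 0 otherwise, whereas DESeq2 passed Tyms for NTY against sham in primordial follicles and for the stages in sham, and Mcm7 for the stages in NTY, and limma passed 0.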

How the data were processed

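Oocyte RNA was sequenced in 18 bulk libraries. The authors deposited raw read counts (whole numbers) over 53715 genes and a TPM table that covers 28252 genes. Per the labels, the submitters' processing notes name Trim Galore 0.4.1, TopHat2, featureCounts and mm10, in no stated order or role; their settings, and how reads matching several genes were counted, are not given in the sources used here. The TPM of all 68 members implied gene lengths within 1 percent of their summed exons in GENCODE M21.

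Members were joined to the counts by gene identifier. The members and gene lists were chosen with earlier results of these data known. Counts were tested with edgeR 4.0.16 in R 4.3.3 (TMM, filterByExpr by group, robust quasi-likelihood, Benjamini-Hochberg adjustment over all genes tested). The 12 microdissected libraries shared a fit of 10522 genes (common dispersion 3.59) and the 6 MII libraries one of 12209 (0.542). SE is the size of the log2 fold change divided by the square root of F. DESeq2 1.42.0, limma 3.58.1 on TPM (log2 scale, pseudocounts of 1 and 0.1, genes reaching 1 TPM in 3 or more libraries), RLE scaling and other filters were tried as alternatives, as were a replicate block and fits without single libraries. The counts at an unadjusted p without single libraries, and the checks without primordial NTY replicate 3, were added after the data had been seen. The fits were also run on simulated data with 200 changed genes, in part at a lower spread than in these libraries. The outcome is not given here, so it does not show how many real changes the tests would miss. Sums were made with Python 3.11.15, pandas 2.3.3 and numpy 2.4.6, and given without tests. Sequences were read from GENCODE M21 transcripts.

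Fold changes are given, in each comparison, for members that passed, for the 2 highest and 2 lowest with a mean of at least 10 CPM, and for H1f8 and H1f0. Counts of other members were chosen after their values were seen. A count of 3 or fewer was treated as near absent, and counting error only is covered, since amplified reads are not independent molecules.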

Additional observations from a re-analysis of the deposited data

Results flagged for a closer look

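The fitted NTY effect on H2ac4 differed between oocytes of primary and primordial follicles, which is what marked it for a closer look. The log2 difference, primary minus primordial, was -12.53 (edgeR interaction test, adjusted p = 0.0238). It was lost without primordial NTY replicate 3 (adjusted p = 0.180), the library with 115805 counts whose oocyte label is in doubt. Counts in primordial follicles were 2, 3 and 1 in sham and 2031, 5597 and 115805 in NTY. In primary follicles they were 3115, 15407 and 2279 in sham and 9238, 39332 and 18871 in NTY. The adjusted p lay between 0.00154 and 0.361 in 18 alternatives and reached 0.05 in 5. H2ac4 was at 0 in all 6 MII libraries.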

How the results depend on the processing

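The number of histone genes passing was 1, 0, 0, 1, 0 and 1 for NTY against sham in primordial, primary and MII oocytes, for primary against primordial in sham and in NTY, and for the interaction of NTY with stage. With DESeq2 it was 8, 1, 0, 6, 2 and 2. A filter on any count gave 2 for the interaction and 0 for the stages in sham. A minimum of 10 counts in every library gave 0 throughout and removes H2ac4 from the test. Fitting only the groups compared gave 2 in primordial follicles and 0 for the stages in sham. Primary NTY replicates 2 and 3 have library codes that differ only by an added digit, and summing them gave 0 for the interaction. So did limma on log2(TPM + 1) or log2(TPM + 0.1). Leaving out 1 library gave 0 to 2, 0 to 2 and 0 to 3 for the 3 comparisons with a call, and the cause of these changes was not tested. The genes that joined H2ac4 in edgeR fits were H2ac15 and Hist1h2br.

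Libraries with the same replicate number did not deviate together (correlations from -0.06 to 0.07). Libraries of unlike number were not correlated for comparison and replicates varied widely, so this does not show whether the numbers pair them. The replicate block gave 1, 0, 0, 1, 0 and 1 histone genes. With the replicate block H1f8 stood at 0.66 in primordial follicles and -2.21 for the interaction, H1f0 at 0.88 in primary follicles, H2ac1 at -0.027 in MII, H4c14 at 1.44 between the stages in sham and H4c6 at -2.01 for the interaction, each of the other sign than without it.

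No log2 fold change that passed turned its sign, whereas those of genes that did not pass often did. In primary follicles RLE gave H1f0 0.092 and H1f8 0.47, as did DESeq2 (0.092 and 0.47), only the groups compared gave H1f8 0.010, and the summed replicates gave H1f0 0.17. Between the stages in NTY, H1f0 was -0.18 with RLE and with DESeq2, -2.64 with limma on log2(TPM + 1) and -3.30 with the pseudocount of 0.1. These limma fits gave H1f8 0.054 and 0.70 in primordial follicles and -0.89 and -2.19 for the interaction, H2ac1 -0.050 and -0.051 in MII, H4c14 0.26 and 0.30 between the stages in sham, and H2bc1 -1.08 and -1.05 for the interaction, while 0.1 alone gave H4c6 0.33 and, in primary follicles, Hist1h4m -0.11.

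Leaving out 1 library moved H1f8 from -3.08 to 6.63 in primordial follicles, from -0.90 to 0.48 in primary follicles, from -0.089 to 0.30 in MII and from -6.64 to 2.98 for the interaction. It moved H1f0 from -0.58 to 0.54 in primary follicles, from -1.68 to 1.21 in MII and from -0.30 to 0.63 between the stages in NTY. It moved Hist1h4m from -9.05 to 10.92 in primary follicles, H2ac1 from -0.41 to 0.37 and H2bc4 from -0.30 to 2.94 in MII, H4c14 from -3.63 to 3.94 and H4c6 from -5.72 to 1.18 between the stages in sham, and H3c10 from -9.24 to 0.94 and Hist1h2br from -17.50 to 1.15 in NTY.

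The mean share of counts on the 68 genes was 1.19%, 1.53%, 2.02%, 1.92%, 1.31% and 1.41% in primordial sham and NTY, primary sham and NTY, and MII sham and NTY. As a share of the TPM total, which weights short genes more, it was 6.11%, 8.75%, 10.9%, 10.6%, 2.84% and 3.06%. Without the linkers, the mean share of counts was 0.00483% in MII sham and 0.00577% in MII NTY. In MII 3 counts were worth 0.301 to 0.347 CPM, which limits what can be said of the genes at 0 there.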
